A study of Mus musculus with 17 samples.

Results

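The genes described here are 5 members of the mouse tissue kallikrein family, Klk1b8, Klk1b21, Klk1b22, Klk1b24 and Klk1b27, out of 24594 genes in the table of reference genes. They were chosen by symbol for their level in spermatids, so their levels across the 5 stages are given as a description with no test. Kallikrein genes number 27 in that table, and the other 22 are given where they bear on these 5. The data did not bear out the name of the group for all of its members: Klk1b8 was abundant in elongating spermatids, and the other 4 stayed under 1 RPKM (reads scaled to exon length in kilobases and to M reads of the library) in all 15 libraries of the 5 stages.

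RNA of germ cells sorted by flow cytometry from C57BL/6JRj mouse testes was sequenced in 17 libraries. Single libraries were made from round spermatids of juveniles (RS23, 23 days after birth per its title) and from elongating spermatids sorted by a Prm1-EGFP reporter (PrmES), both stained with Hoechst alone. Cells of the other groups, stained with Hoechst and SYTO16, gave 3 libraries each. LZ are leptotene and zygotene spermatocytes, PD pachytene and diplotene spermatocytes and RS round spermatids of adults, while EES are elongating spermatids of the early and LES of the late kind. The labels give an age of 3 months and a WT genotype for every library, which differs from the titles of RS23 and PrmES. How many animals each library pools is not stated. In the authors' reference gene values, library names begin with Erkek for RS23 and PrmES and with Gill for all others. What this prefix stands for is not stated. The stain, the prefix and the single library cannot be told apart from the cells in any comparison with RS23 or PrmES. Snord88a and Snord88c, near the members, had 50.3 and 39.3 RPKM in RS23 and 11.9 and 5.29 RPKM in PrmES. Elsewhere they had at most 1.98 and 1.32 RPKM (both in LZ). The cause was not tested.

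Kallikreins are secreted serine proteases, made as inactive precursors and cut to their active form. Klk1, the tissue kallikrein proper, releases kinins from kininogens, and the Klk1b genes are a rodent expansion of it, some of whose proteins process growth factors in the mouse submaxillary gland. In the mouse testis, Klk1b21, Klk1b24 and Klk1b27 are known from Leydig cells, the androgen-producing cells between the tubules. Elongating spermatids replace histones with transition proteins such as Tnp1 and then with protamines such as Prm1, and late in this process transcription stops.

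All 5 genes lie on the forward strand of the kallikrein cluster of chromosome 7 and have 5 exons each in GENCODE M21 (GRCm38). Klk1b8 (gene ID 16624) lies at chr7:43950664-43954941. Klk1b27 (16619) lies at chr7:44052290-44056712 and Klk1b21 (16616) at chr7:44102328-44106583. Klk1b22 (13646) lies at chr7:44112673-44116922 and Klk1b24 (16617) at chr7:44188236-44192455.

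The exon 4 sequences of the 5 genes, 137 bases each, are shown because they let the copies be told apart by eye; capitals mark the bases that differ from Klk1b8. They were read from the GENCODE M21 transcripts at chr7:43954234-43954370 (Klk1b8), chr7:44105872-44106008 (Klk1b21), chr7:44116209-44116345 (Klk1b22), chr7:44191744-44191880 (Klk1b24) and chr7:44056005-44056141 (Klk1b27), all on the forward strand.
Klk1b8: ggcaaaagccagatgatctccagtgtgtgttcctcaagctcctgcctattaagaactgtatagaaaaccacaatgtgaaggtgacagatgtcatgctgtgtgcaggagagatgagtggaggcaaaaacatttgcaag
Klk1b21: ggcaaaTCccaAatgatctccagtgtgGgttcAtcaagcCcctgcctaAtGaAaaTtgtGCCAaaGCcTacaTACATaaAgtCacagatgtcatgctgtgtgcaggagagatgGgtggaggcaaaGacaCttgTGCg
Klk1b22: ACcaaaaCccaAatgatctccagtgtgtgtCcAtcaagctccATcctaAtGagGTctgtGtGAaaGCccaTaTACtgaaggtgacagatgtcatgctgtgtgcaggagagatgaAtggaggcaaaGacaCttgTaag
Klk1b24: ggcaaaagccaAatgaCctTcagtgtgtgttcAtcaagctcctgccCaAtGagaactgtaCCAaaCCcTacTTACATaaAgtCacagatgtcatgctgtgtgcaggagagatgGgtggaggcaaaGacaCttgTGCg
Klk1b27: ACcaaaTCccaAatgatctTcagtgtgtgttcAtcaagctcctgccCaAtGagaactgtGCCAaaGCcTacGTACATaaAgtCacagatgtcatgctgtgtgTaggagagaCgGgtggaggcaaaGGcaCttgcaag
In this exon the other 4 members differed from Klk1b8 at 25 (Klk1b22), 27 (Klk1b24), 30 (Klk1b21) and 31 (Klk1b27) positions. Over the whole annotated transcript, 85.7% of aligned positions were identical between Klk1b8 and Klk1b22, 84.3% for Klk1b21, 83.4% for Klk1b24 and 80.8% for Klk1b27. Klk1b21, Klk1b24 and Klk1b27 were closer to one another, at 90.7% to 92.7%.

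How far the copies can share reads depends on the read length, for which no source used here gives a value. Of all 50-base windows of the Klk1b8 transcript, 22.6% occurred unchanged in another kallikrein transcript, and of all 100-base windows 0.789% did. For Klk1b24, the member with the largest such share at 50 bases, the values were 33.9% at 50 bases and 2.57% at 100 bases. Low values of single members are therefore uncertain, since how the authors' counting assigned shared reads was not given.

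Klk1b8 was the abundant member. It had 3.52, 3.97 and 5.52 RPKM in LZ, then 0.243, 0.247 and 0.890 RPKM in PD, and 1.92, 3.34 and 6.24 RPKM in RS. In elongating spermatids it had 476, 201 and 463 RPKM in EES and 466, 416 and 464 RPKM in LES. These levels rest on 16738 to 48178 reads a library in EES and LES, against 178 to 710 in RS. Every EES and LES library lay above every earlier one, LZ and RS overlapped, every PD library lay below all of LZ and RS, and EES overlapped LES. The stage means were 4.33 ± 1.05 RPKM in LZ, 0.460 ± 0.372 in PD, 3.83 ± 2.20 in RS, 380 ± 155 in EES and 449 ± 28.7 in LES (SD, n = 3 each). In the order of these means, the neighbours LES and EES, and also LZ and RS, did not differ beyond their spread. By mean level Klk1b8 ranked 6753 of 24594 genes in RS, 188 in EES and 167 in LES.

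The difference between EES and RS was 6.69 on the log2 scale for Klk1b8, while the median of the 13260 genes tested moved by -1.42. It was 3.14 between RS and PD and -3.46 between PD and LZ, where the medians of all tested genes moved by 0.02 and -0.36. Between LES and EES it was 0.34, less than the spread between the EES libraries. In bulk samples, fewer cells of a type and less RNA per cell cannot be told apart. Summed markers of macrophages and Sertoli cells, but not all markers of other cells, were also higher in elongating than in round spermatids. The summed level of 7 macrophage markers was 4.30 to 4.56 RPKM in RS, 8.22 to 19.8 RPKM in EES and 20.8 to 85.0 RPKM in LES. The higher sum in EES came from C1qb, which averaged 0.289 RPKM in RS and 13.1 RPKM in EES. Csf1r (3.05 and 0.252 RPKM) and Adgre1 (0.807 and 0.709 RPKM) were lower in EES. C1qa, C1qc, Cd68 and Lyz2 averaged at most 0.221 RPKM there. In LES all 7 reached 1 RPKM in at least 1 library, against 1 in EES. The summed level of 12 Sertoli cell markers was 3.12 to 3.51 RPKM in RS, 6.47 to 20.8 RPKM in EES and 12.4 to 46.6 RPKM in LES. In LZ the Sertoli sum was highest among the stages, at 59.3 to 110 RPKM, against 1.88 to 2.35 RPKM in PD. The part of such cells in the members' values was not tested.

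**Figure D1:**
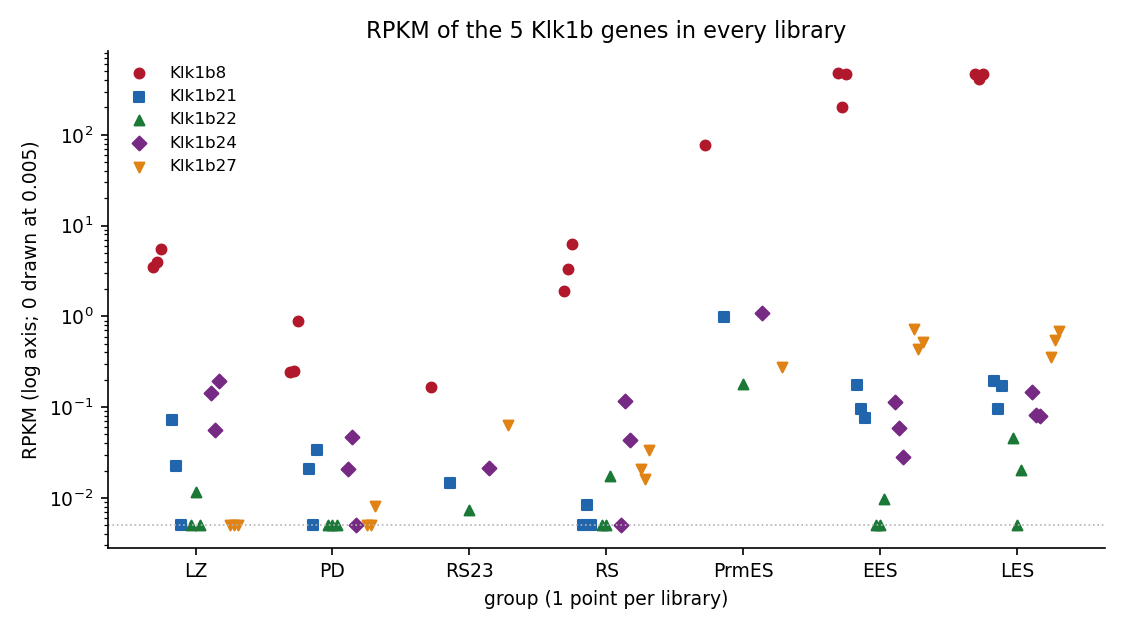
RPKM of the 5 Klk1b genes (log axis, values of 0 drawn at 0.005), 1 point per library, with the 5 stages in order and the single libraries RS23 and PrmES left of RS and EES. Klk1b8 reaches 201 to 476 RPKM in EES and LES, while the other 4 members stay under 1 RPKM in every stage.

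Klk1b27 was the second member by level, and its few reads were in elongating spermatids. It had 0 reads in the 3 LZ libraries, at most 1 read in PD and 2, 2 and 4 reads in RS. In EES it had 58, 38 and 56 reads (0.720, 0.441 and 0.520 RPKM), and in LES 32, 47 and 70 reads (0.356, 0.544 and 0.692 RPKM). The EES and LES libraries overlapped and all 6 lay above the 9 earlier ones.

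Klk1b21, whose protein is a kallikrein known in mouse Leydig cells, had 0.178, 0.0948 and 0.0758 RPKM in EES and 0.193, 0.0945 and 0.171 RPKM in LES, from 8 to 17 reads a library. In LZ, PD and RS it had 0 to 6 reads. Klk1b24, another kallikrein of that cell type, showed no order by stage: it had 12, 5 and 17 reads in LZ, 2, 5 and 0 in PD, 0, 14 and 5 in RS, 9, 5 and 3 in EES and 13, 7 and 8 in LES, with overlapping groups. Klk1b22, also known as an epidermal growth factor binding protein of the mouse submaxillary gland, had between 0 and 4 reads in each of the 15 libraries. Of the 5 members, Klk1b8 alone passed the filter of 1 RPKM in at least 3 of these libraries.

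In the juvenile round spermatids Klk1b8 was lower than in the adult ones. It had 0.168 RPKM (23 reads) in RS23, against 1.92, 3.34 and 6.24 RPKM in RS. The RS23 value lay below all 3 RS libraries, and also below all 15 libraries of the stages. The difference was -4.27 ± 0.74 on the log2 scale (SE here and after every log2 fold change, 1 library against 3, adjusted p = 0.00382 in limma), in a comparison in which 4.59% of the 13260 genes tested fell, 3.33% rose and their median moved by -0.14. The lone library is assumed to vary like the others. The RS values were among those known when the members were chosen for their level in spermatids, which can favour a lower value in RS23. The adjusted p lay between 0.0036 and 0.0265 under the alternatives tried. Without the filter, none of the other 4 members was called between RS23 and RS, where 5.24% of 23715 genes rose and 3.14% fell: Klk1b27 had 9 reads in RS23 against 2, 2 and 4 in RS (log2 fold change 1.16 ± 0.46, adjusted p = 0.153 in limma).

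The markers of spermatid stages moved unequally in RS23. Prm1, the protamine gene, had 9.75 RPKM in RS23 against 124 to 234 RPKM in RS (-4.07 ± 0.71, adjusted p = 0.00415 in limma). Tnp1 had 72.0 RPKM against 219 to 530 RPKM and was not called (-2.26 ± 0.69, adjusted p = 0.0633 in limma), and Odf1, a sperm tail protein gene, had 115 RPKM against 93.5 to 140 RPKM. The part of what moved Prm1 in the Klk1b8 difference was not tested.

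In the Prm1-EGFP sorted cells Klk1b8 was the most abundant kallikrein, at a lower level than in the elongating stages. It had 77.0 RPKM (9877 reads) in PrmES, against 476, 201 and 463 RPKM in EES and 466, 416 and 464 RPKM in LES. The PrmES value lay below all 6 of those libraries and above every RS library. The difference was -2.20 ± 0.74 against EES (adjusted p = 0.0779 in limma, unadjusted 0.0104) and -2.54 ± 0.74 against LES (adjusted p = 0.0706, unadjusted 0.00425), so neither was called. In these comparisons 2.75% and 2.41% of the tested genes fell, 6.85% and 2.31% rose, and the median of all of them moved by 0.27 and 0.28. With EES replicate 2 left out, the adjusted p against EES was 0.0171 in limma (-2.61), and with a pseudocount of 1 RPKM both differences were called (adjusted p = 0.0142 and 0.00668). Replicate 2 stands apart from the other EES libraries: Acrv1, an acrosome gene of round spermatids, had 95.2 RPKM there, against 3.05 and 8.14 RPKM in the other 2. The EES and LES values took part in the choice of the members for their level in spermatids. That choice favours a lower value of Klk1b8 in PrmES, so these tests are not independent of it.

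The 3 lowest members had more reads in PrmES than in any EES or LES library, and 1 of the 3 was called, against EES alone. Klk1b24 had 142 reads (1.08 RPKM) in PrmES, against 3 to 9 reads in EES and 7 to 13 in LES. Klk1b21 had 129 reads (0.992 RPKM), against 8 to 14 in EES and 8 to 17 in LES, and Klk1b22 had 23 reads (0.180 RPKM), against at most 1 in EES and 4 in LES. For each of these 3 genes PrmES was the highest of all 17 libraries, and for Klk1b27 it was not, with 37 reads in PrmES. This was not particular to members. PrmES was also the highest library for the low copies Klk1b1 (107 reads, against at most 38 in EES and 32 in LES) and Klk1b11 (10 reads, against at most 2 and 7). In the fit with no filter, in which 7.34% of 23715 genes rose against EES, Klk1b22 rose (3.92 ± 0.85, adjusted p = 0.0136 in limma), while Klk1b24 (3.99 ± 1.27, adjusted p = 0.0707) and Klk1b21 (3.07 ± 1.03, adjusted p = 0.0861) were not called. Against LES, where 3.09% of genes rose in that fit, none of the 3 was called (adjusted p = 0.0743, 0.170 and 0.175 for Klk1b22, Klk1b24 and Klk1b21).

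Leydig cell markers were also higher in PrmES. The summed level of 9 such genes was 7.06 RPKM in PrmES, against 1.01 to 1.29 RPKM in EES and 0.845 to 5.59 RPKM in LES. All 9 were in the table, none was at 0 in PrmES and 4 of them reached 1 RPKM there. Cyp17a1 had 1.53 RPKM in PrmES, against 0.155 to 0.194 RPKM in EES and 0.0520 to 0.939 RPKM in LES. Insl3 had 1.95 RPKM in PrmES, against 0.461 to 0.513 RPKM in EES and 0.429 to 3.09 RPKM in LES, so it was not above every LES library. The LZ libraries had 5.35 to 7.67 RPKM of the same markers and 0.0562 to 0.195 RPKM of Klk1b24. The summed level of 12 Sertoli cell markers was 61.8 RPKM in PrmES, against 6.47 to 20.8 RPKM in EES and 12.4 to 46.6 RPKM in LES. That of the 7 macrophage markers was 6.47 RPKM in PrmES, below every EES and LES library. Of these 7, C1qb was lower in PrmES (3.20 RPKM) than in EES (6.79 to 18.2 RPKM). Adgre1, C1qa, C1qc and Lyz2 were higher in PrmES (0.979, 0.457, 0.177 and 1.19 RPKM) than in any EES library. Csf1r and Cd68 lay within their EES range. The part of these cells in the members' values was not tested.

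The rest of the cluster gives the frame for Klk1b8. Of the 22 other kallikrein genes, 8 reached a stage mean of 1 RPKM and were tested. All 8 met the filter in elongating spermatid libraries, and 2 of them, Klk1b7-ps and Klk1b9, also met it in the earlier stages. Klk1b9, another such binding protein, had 131, 49.6 and 113 RPKM in EES and 113, 106 and 110 RPKM in LES, against 0.810, 1.12 and 1.73 RPKM in RS. Klk1b26 had 22.7 to 59.2 RPKM in EES and 47.7 to 54.0 RPKM in LES, the pseudogene Klk1b7-ps 30.9 to 33.3 and 24.9 to 31.2 RPKM, and Klk1b3 9.56 to 28.7 and 17.9 to 26.9 RPKM. Klk1, Klk1b5, Klk1b4 and Klk1b16 followed, with Klk1 at 10.7 to 14.7 RPKM in LES and Klk1b16 at 1.15 to 1.54 RPKM. All 8 lay below Klk1b8 in every EES and LES library. The other 14, among them all of Klk4 to Klk15, stayed at or under 0.827 RPKM in all 17 libraries.

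**Figure D2:**
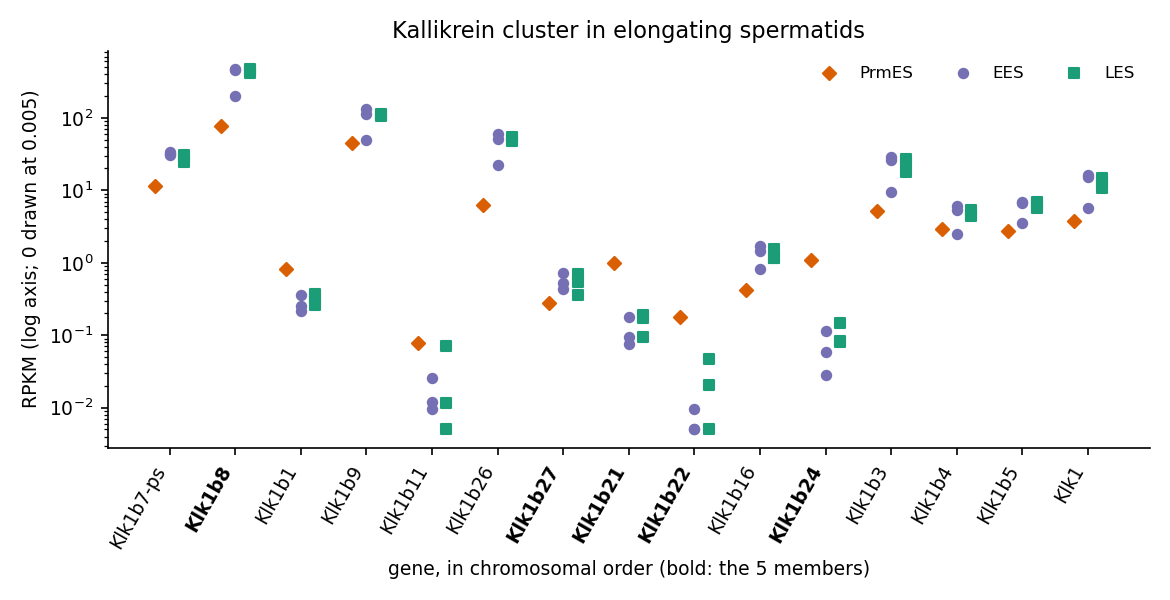
RPKM (log axis, values of 0 drawn at 0.005) of the genes of the Klk1 and Klk1b part of the cluster in chromosomal order, 1 point per library, for PrmES, EES and LES. Klk1b8 is the highest gene in each of the 7 libraries. Klk1b21, Klk1b22 and Klk1b24 are higher in PrmES (0.992, 0.180 and 1.08 RPKM) than in any EES or LES library. So are Klk1b1 and Klk1b11 (0.827 and 0.0776 RPKM in PrmES), which are not members.

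All 8 of these genes rose between EES and RS (15.8% of all tested genes rose), by 3.70 to 6.45 on the log2 scale. Since all of them but Klk1b7-ps and Klk1b9 passed the filter through elongating spermatids alone, this count was bound to be high. Between RS and PD 7 of the 8 rose (23.4% of all tested genes) and Klk1 did not pass (0.52 ± 0.48, adjusted p = 0.412 in limma). Between PD and LZ 6 fell (35.8% of all tested genes), while Klk1 (0.91 ± 0.48, adjusted p = 0.105) and Klk1b16 (-1.08 ± 0.86, adjusted p = 0.282) were not called. Between LES and EES none of the 8 was called in limma, also at an unadjusted p under 0.05 (0 of 8), where 0.00754% of all tested genes rose and 0% fell. At the low levels before elongation these calls depend on the pseudocount: with 1 RPKM, 1 of the 8 rose between RS and PD and 0 fell between PD and LZ. Single libraries also decide some of them: the rise of Klk1b16 between RS and PD was lost without RS replicate 2 or 3 or PD replicate 1 or 3 (adjusted p up to 0.173 in limma). Between PD and LZ, Klk1b16 fell without LZ replicate 2 (adjusted p = 0.0318) and Klk1 rose without LZ replicate 3 (0.00842).

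Between RS23 and RS, 4 of the 8 fell: Klk1b9 (-4.67 ± 0.60, adjusted p = 0.000725 in limma), Klk1b26 (-3.77 ± 0.79, 0.0119), Klk1b3 (-3.19 ± 0.73, 0.0186) and Klk1 (-2.42 ± 0.67, 0.0442). Of all tested genes 4.59% fell in this comparison and 3.33% rose. Klk1b7-ps did not move with these 4. It had 154 reads (1.40 RPKM) in RS23, against 122, 121 and 143 reads (1.64, 1.27 and 1.56 RPKM) in RS. Klk1b8 had 23 reads in RS23 against 178, 396 and 710 in RS. The calls of Klk1 and Klk1b3 were lost when each library was centred on its median (adjusted p = 0.121 and 0.0600) or without RS replicate 3 (0.112 and 0.0547), and that of Klk1 also without replicate 1 (0.0535) or replicate 2 (0.0936), while Klk1b5 fell without RS replicate 2 (0.0261). At these low levels the count depends on the pseudocount: with 1 RPKM, 0 of the 8 fell (adjusted p = 0.123 for Klk1b9, 0.401 for Klk1b26, 0.753 for Klk1b3 and 0.533 for Klk1 in limma).

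Relative to Klk1b8, each of the 8 other kallikreins but Klk1b7-ps had a ratio in PrmES outside its range in the elongating stages. The ratio of Klk1b26 was lower in PrmES, and those of the rest were higher. Klk1b9 had 59.0 reads per 100 reads of Klk1b8 in PrmES, against 24.0 to 27.9 in the 6 EES and LES libraries. Klk1b26 had 13.3 in PrmES, against 18.0 to 20.1, and Klk1b7-ps had 12.01, against 4.82 to 12.6, with the highest value in EES replicate 2. With the pseudocount of 0.01 RPKM, Klk1b26 alone of the 8 other kallikreins was called lower in PrmES (-2.69 ± 0.79 against EES, adjusted p = 0.0493 in limma; -3.01 ± 0.79 against LES, 0.0488). That call was lost without EES replicate 1 or 3, without any LES replicate and under median centring (adjusted p up to 0.11). Without EES replicate 2, Klk1b3 (adjusted p = 0.0195 in limma) and Klk1 (0.0221) were also called lower than in EES. With a pseudocount of 1 RPKM 4 of the 8 were called lower, Klk1b26 and also Klk1b7-ps (adjusted p = 0.000994 against EES and 0.00292 against LES in limma), Klk1b3 (0.0179 and 0.0110) and Klk1 (0.0377 and 0.0253). Apart from Klk1b7-ps and Klk1b9, the 8 passed the filter through EES and LES libraries alone, which favours calls as lower in PrmES. With the pseudocount of 0.01 RPKM, 2.75% (EES) and 2.41% (LES) of all tested genes fell, and the shares with 1 RPKM are not given here. Klk1b8 made up 47.0% of all kallikrein reads in PrmES (95% Wilson interval 46.3% to 47.7%), against 58.9% to 62.1% in the EES and LES libraries. Klk1b9 made up 27.7% (27.1% to 28.3%), against 14.7% to 16.6%. These intervals cover counting error only, and the ratios were not tested against the conditions, since PrmES is 1 library.

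**Figure D3:**
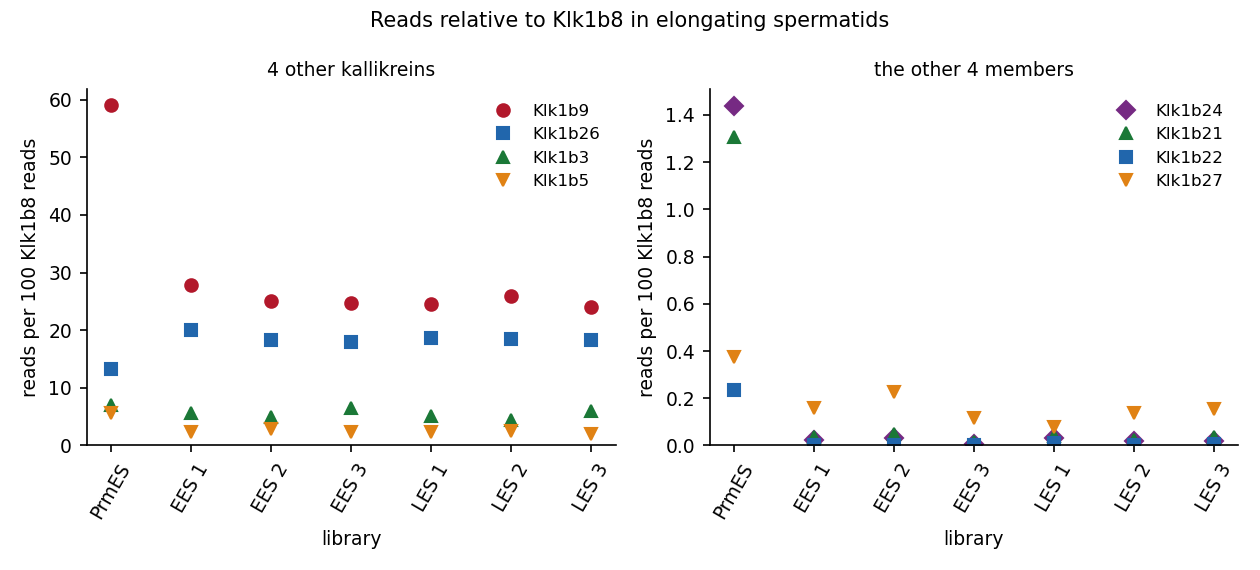
Reads of 4 other kallikreins (left) and of the other 4 members (right) per 100 Klk1b8 reads in PrmES and in the EES and LES libraries. Klk1b9 stands at 59.0 in PrmES and between 24.0 and 27.9 elsewhere, and Klk1b24 at 1.44 in PrmES and at most 0.0321 elsewhere.

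The authors' de novo assembly gave Klk1b8 another first exon than the annotation. Its gene at this locus has 2 transcripts, both starting at chr7:43947284, 3380 bases upstream of the annotated start, with a first exon of 337 bases that ends at 43947620. From there they join annotated exons 2 to 5 and leave out exon 1 (chr7:43950664-43950736), which holds the annotated start codon (chr7:43950691-43950693). The 2 transcripts differ in the start of exon 3, at 43953851 and 43953855. Klk1b27 was assembled likewise from 4646 bases upstream of its annotated start, with annotated exons 2 to 5 and without the annotated start codon. No de novo gene overlapped the exons of Klk1b21, Klk1b22 or Klk1b24. Which protein the assembled transcripts could encode was not analysed here.

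For Klk1b8, reads over the assembled exons came close to those over the annotated ones, with which they share 786 of 859 annotated bases. Near-equal counts were therefore given by the shared exons 2 to 5 and do not show which first exon was used. In EES and LES the de novo gene of Klk1b8 had 94 to 565 more reads than the reference gene (100.6% to 101.2%), and in PrmES 118 fewer (98.8%). Klk1b27 differed more, on few reads: its assembled gene had 31 reads in PrmES against 37 over the reference gene (83.8%), and 1 against 9 in RS23, while in EES and LES it had 109% to 139% of them. The assembled gene of Klk1b9 holds annotated exons 3 to 5 only. It had 441 reads fewer than the reference gene in PrmES, 7.57% of its reads, against 1 to 32 fewer in EES and LES, at most 0.269%. For Klk1b26, also assembled from exons 3 to 5, 122 reads (9.27%) were missing in PrmES, against at most 4 in EES and LES. For both genes the share of such reads was larger in PrmES than in any EES or LES library. The assembled genes of Klk1b3 and Klk1b16 had 75.8% and 62.8% of the reference reads in PrmES.

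**Figure D4:**
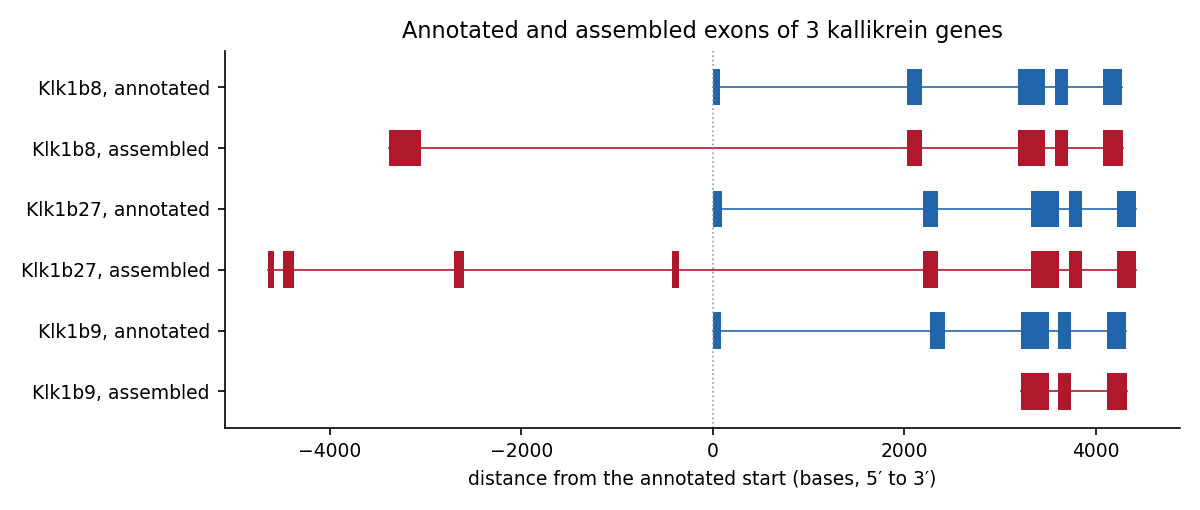
Exons (boxes) of the annotated (blue) and first assembled (red) transcript of Klk1b8, Klk1b27 and Klk1b9, drawn to scale against the distance in bases from each gene's annotated start. The assembled Klk1b8 and Klk1b27 start 3380 and 4646 bases upstream and lack annotated exon 1, and the assembled Klk1b9 starts at annotated exon 3, 3219 bases downstream.

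The 100 bases before each annotated RefSeq start (GRCm38.p6, forward strand) are shown because the assembled Klk1b8 and Klk1b27 do not begin there; capitals mark the letters TTTAAA. They lie at chr7:43950566-43950665 (Klk1b8), chr7:44102192-44102291 (Klk1b21), chr7:44112573-44112672 (Klk1b22), chr7:44188136-44188235 (Klk1b24) and chr7:44052190-44052289 (Klk1b27).
Klk1b8: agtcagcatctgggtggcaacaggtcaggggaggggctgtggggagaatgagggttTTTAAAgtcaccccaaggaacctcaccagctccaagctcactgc
Klk1b21: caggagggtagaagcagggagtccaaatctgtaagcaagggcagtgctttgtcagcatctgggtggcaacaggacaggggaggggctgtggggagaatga
Klk1b22: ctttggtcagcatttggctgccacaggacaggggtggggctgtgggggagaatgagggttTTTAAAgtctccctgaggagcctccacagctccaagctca
Klk1b24: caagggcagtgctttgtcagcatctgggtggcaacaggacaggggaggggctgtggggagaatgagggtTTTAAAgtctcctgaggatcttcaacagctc
Klk1b27: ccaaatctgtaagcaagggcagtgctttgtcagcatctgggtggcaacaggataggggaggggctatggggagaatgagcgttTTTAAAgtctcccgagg
TTTAAA begins 44 bases before the annotated start of Klk1b8, 40 before that of Klk1b22, 31 before that of Klk1b24 and 17 before that of Klk1b27. It reads the same on both strands and overlaps no other motif searched. The whole RefSeq promoter windows run from 250 bases before to 50 after the start. TTTAAA was found there for 5 of 5 members and 8 of 8 other Klk1b genes, against 13.2% of 32851 promoters. For Klk1b21 it lies outside the 100 bases shown, which end at 44102291, before the GENCODE M21 start at 44102328. The Klk1b genes are related copies, so their hits are not independent of one another. TATAAA, TGACGTCA and TGACG, searched on both strands, were found for 0 of 5 members, against 13.6%, 1.79% and 20.8% of all promoters; every TGACGTCA also holds TGACG. The sequence before the assembled first exon is not printed here.

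Across the 15 libraries of the stages the genes most like the summed members were all high in EES and LES. By Pearson's r on the log2 scale, over 7619 genes with a stage mean of at least 8 RPKM, the 10 most alike were Lelp1, Paqr5, Car2, 1700020A23Rik, Prm1, Prm2, Ubqlnl, Bpifa3, Fscn3 and Il2rg, with r between 0.9996 and 0.9986. Klk1b8 made up 84.2% to 99.9% of the sum in these libraries. All genes were measured in the same libraries, and many genes with a low and a high block of stages reach values near these. What depth and purity of the libraries add to r was not tested. Lelp1, a gene of a small protein of unsettled function, averaged 6.48 (RS), 463 (EES) and 526 (LES) RPKM, against 3.83, 380 and 449 for Klk1b8. Among the kallikreins, Klk1b26 stood at r = 0.998 (rank 23), Klk1b9 at 0.992 (rank 107) and Klk1 at 0.922 (rank 726).

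Genes most like each single member differed. For Klk1b8 they were Lelp1, Paqr5 and 1700020A23Rik, and for Klk1b27 they included 1110017D15Rik and BC049715 (r = 0.992 and 0.990), which were also highest in EES and LES. For Klk1b21 (4732471J01Rik, Aktip and Col20a1) the highest r was 0.877, for Klk1b24 (Tusc2, Fam234a and Mast2) 0.786 and for Klk1b22 (Mir5107, H2-Eb1 and 4930549C15Rik) 0.511, as few reads allow.

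The level of Klk1b8 relative to Prm1 varied little over the data. It was 1.73% of the Prm1 level (RPKM) in RS23 and 1.76% in PrmES, against 1.55% to 2.67% in the 15 stage libraries. Relative to Tnp1 it was 0.234% in RS23 and 0.177% in PrmES, against 0.876% to 1.74% in the stages, and relative to Odf1 it spanned 0.146% to 20.1% over all 17 libraries. The library sorted on Prm1-EGFP had 4380 RPKM of Prm1, against 9452 to 28435 RPKM in EES and 23495 to 24591 RPKM in LES, and 43618 RPKM of Tnp1, against 14671 to 36638 and 26948 to 34127 RPKM. The LZ libraries, which held more Klk1b8 than PD, also held more Prm1 (11.6 to 46.2 RPKM in PD, 165 to 268 RPKM in LZ), and what these transcripts add to the LZ level was not tested.

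**Figure D5:**
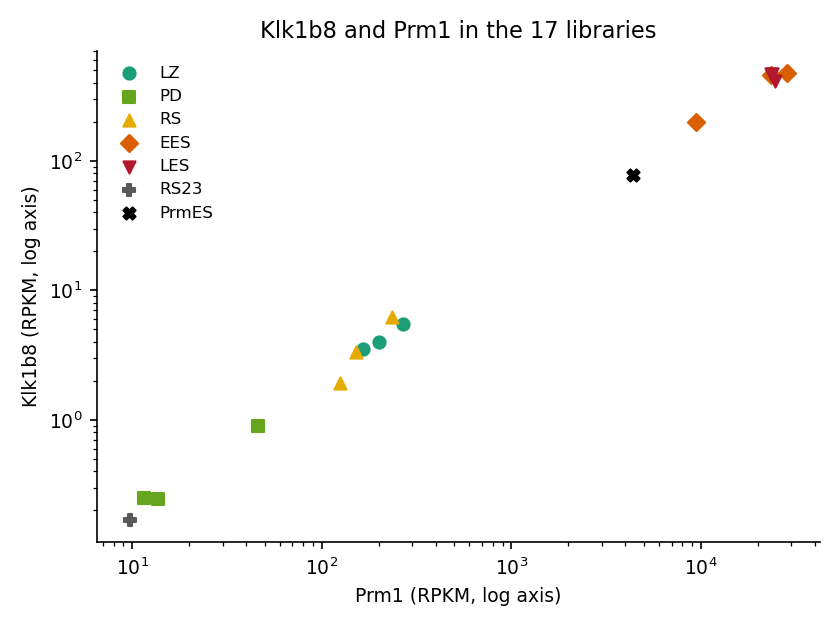
Klk1b8 against Prm1 in RPKM (both axes log) in the 17 libraries, 1 point per library. The points run from RS23 (0.168 and 9.75 RPKM) to EES and LES (up to 476 and 28435 RPKM), with PrmES (77.0 and 4380 RPKM) between RS and EES.

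Partners of tissue kallikreins were mostly absent from these cells. Of 23 genes of the kinin system, growth factors and protease inhibitors, 15 stayed under 1 RPKM in every stage mean, among them both kininogen genes Kng1 and Kng2, and 7 were tested. Between EES and RS 2 of the 7 rose (15.8% of all tested genes did) and 4 fell (54.9%). Ace, a peptidase of angiotensin and kinins with a germ cell form of its own, rose to 253 ± 74.3 RPKM in EES, against 18.1 ± 3.37 RPKM in RS (SD, n = 3 each; log2 fold change 3.77 ± 0.30, adjusted p = 3.21e-07 in limma). Ngfr, a neurotrophin receptor gene, fell (-4.79 ± 0.47, adjusted p = 1.61e-06), as did Bdkrb2, the bradykinin receptor (-3.24 ± 0.56, 0.000161), and Cpn1, a carboxypeptidase that inactivates kinins (-2.80 ± 0.51, 0.00024). Between RS and PD 4 rose and 1 fell (23.4% and 15.2% of all tested genes), with F12 (4.87 ± 0.64, adjusted p = 3.32e-05) and Klkb1, the plasma prekallikrein gene (3.55 ± 0.36, 4.02e-06), among the risers. Between PD and LZ 4 rose and 2 fell (25.5% and 35.8%), with Serpina5, an inhibitor of kallikreins, falling by 5.11 ± 0.47 (adjusted p = 7.33e-07). Between LES and EES none of the 7 was called in limma, and 0 had an unadjusted p under 0.05.

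Neighbouring genes moved in both directions. Of 39 genes within 500 kb of the members that are no kallikreins, 18 were tested. Between EES and RS 5 rose and 9 fell (15.8% and 54.9% of all tested genes), with a median log2 fold change of -1.12 (-1.42 over all tested genes). Fam71e1 rose (422.6 ± 158 RPKM in EES, 24.8 ± 0.862 in RS, SD, n = 3 each; log2 fold change 4.02 ± 0.39, adjusted p = 1.34e-06 in limma), and so did Cd33 (4.87 ± 0.39, 3.12e-07), a sialic acid binding receptor gene, at 1.29 ± 0.46 RPKM in EES. Zfp819, a zinc finger gene, fell (-4.51 ± 0.73, adjusted p = 9.89e-05). Between RS and PD 8 of the 18 rose and 0 fell (23.4% and 15.2% of all tested genes), and between PD and LZ 3 rose and 12 fell (25.5% and 35.8%). Between LES and EES 0 of 18 were called in limma, and 1 had an unadjusted p under 0.05.

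The libraries held 90.6 to 159.2 M reads, of which 48.4% to 87.7% fell in genes of the table. Of the stage markers, Dmc1, a meiotic recombinase gene, had 46.3 to 74.9 RPKM in LZ and at most 3.26 RPKM elsewhere. Others went against the order of stages: Tnp1 averaged 38.9 RPKM in PD and 268 RPKM in LZ, and Acrv1 had 3.05 to 95.2 RPKM in EES, a range that spans the 26.1 to 35.7 RPKM of RS. Nothing in the labels says that replicates came from separate animals, so the spread behind every p-value is that between libraries and may be technical.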

How the data were processed

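RNA levels were measured in 17 libraries, grouped by their titles. The submitters' processing notes name Trim Galore, STAR and the builds GRCm38 and mm10. For strandedness, read length, the counting tool and its handling of shared reads the answer is: not given in the sources used here. Deposited values of both tables, as the authors made them, are log2 of 100 times RPKM plus 1, so the pseudocount is 0.01 RPKM; whole reads were recovered from them with exon lengths and checked within 0.01 read. The deposited transcript annotation gives positions (unit other) and names StringTie 1.3.4d, per the file headers. The log2 table of de novo genes deposited by the authors was used for reads over assembled exons.

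Of 24594 genes, 13260 with at least 1 RPKM in at least 3 of the 15 stage libraries were tested. Models were fitted in limma 3.58.1 (R 4.3.3) with moderated tests and a mean-variance trend, on the 15 stage libraries for stage comparisons and on all 17 for RS23 and PrmES. A call needed an adjusted p under 0.05 (Benjamini-Hochberg, all tested genes) and a log2 fold change of 1 or more in size. The fit was tested on simulated data. Depth was 90.6 to 159.2 M reads, and Wilson intervals have a level of 95%.

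The members and lists were chosen with earlier results of these data known. Named genes were the members, other kallikreins with a stage mean of at least 1 RPKM, the 10 genes most like the summed members and the 3 most like each member (1 of these is not reported here), and up to 4 called genes per comparison from the neighbours and partners. Alternatives were a pseudocount of 1 RPKM, median centring, scaling to reads in genes, no filter, a filter of 5 RPKM, the replicate block, the de novo genes, and leaving out each replicate. Deviations of same-numbered libraries of neighbouring stages had r of -0.25 to 0.24 (4 of 12 pairs over 0.1). Every same-number pair of LZ with PD and of PD with RS was positive (0.025 to 0.24). The main fit did not use the numbers to pair the samples. Such r values cannot exclude that libraries of the same number share an animal or a sort.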

Additional observations from a re-analysis of the deposited data

How the results depend on the processing

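The difference in summed Klk1b level kept its direction between PD and LZ (-3.34 on the log2 scale), RS and PD (3.00) and EES and RS (6.66) under all alternatives tried. With a pseudocount of 1 RPKM it was -1.88 between PD and LZ and 1.64 between RS and PD, and with median centring 8.11 between EES and RS. Between LES and EES it was 0.34 and reversed to -0.067 without EES replicate 2. Leaving out 1 replicate each gave -3.89 to -3.05 (PD against LZ), 2.57 to 3.55 (RS against PD), 6.23 to 7.08 (EES against RS) and -0.067 to 0.55 (LES against EES).

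With a pseudocount of 1 RPKM, 0 other kallikreins were called between PD and LZ in place of 6, 1 between RS and PD in place of 7, 0 between RS23 and RS in place of 4, and 4 in PrmES against EES and against LES in place of 1 each. Leaving out 1 replicate gave 6 to 7 calls between PD and LZ and 6 to 7 between RS and PD. It gave 8 to 8 between EES and RS, and 0 to 0 between LES and EES. Of the members, 0 were called in PrmES against EES, but 1 with a pseudocount of 1 RPKM (Klk1b8), 1 with no filter (Klk1b22) and 1 without EES replicate 2 (Klk1b8), so 0 to 1 over the replicates left out. Against LES 0 were called, 1 with a pseudocount of 1 RPKM (Klk1b8), and 0 to 0 over the replicates left out. In RS23 against RS 1 member was called throughout (1 to 1).

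With replicate number as a block, the count of other kallikreins called was 6 between PD and LZ, 7 between RS and PD, 8 between EES and RS and 0 between LES and EES, as without it. No paired analysis was possible for RS23 and PrmES because each is 1 library, nor for the summed level, which has no test. With no filter 10 partner genes were called between PD and LZ and 10 between EES and RS, in place of 6 and 6, and 25 and 14 neighbours between PD and LZ and between RS and PD, in place of 15 and 8. With 5 RPKM the partner counts were 1, 2 and 2, and with a pseudocount of 1 RPKM 3 between EES and RS. In the main fit 25.5% of all tested genes rose and 35.8% fell between PD and LZ. Between RS and PD 23.4% rose and 15.2% fell, and between EES and RS 15.8% rose and 54.9% fell. The shares of all genes called with no filter, with 5 RPKM and with a pseudocount of 1 RPKM are not given here. These counts are therefore no result about the lists. The cause of the changes in counts was not tested. Median centring moved the split of all tested genes between EES and RS to 4306 higher and 3715 lower, in place of 2096 and 7286. Depth limits Klk1b21, Klk1b22 and Klk1b24, which rest on at most 17 reads a library in the stages.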
